A study of Drosophila melanogaster with 8 samples.

Results

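The histamine genes of the fly visual system are described here across heads of light-pulsed and unpulsed flies. They were chosen by name, from their known roles: Hdc, which makes histamine, its receptor genes ort and HisCl1, and e, t and CarT of the carcinine shuttle, 6 genes in all. A probe set counted as a member where its only gene symbol was one of these. Of the 6 genes, 5 had such a probe set, 1 each, out of 11982 genes named in this way and 18769 probe sets tested. The annotation used pairs no probe set with HisCl1 alone, so that gene was not analysed here.

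All flies were Canton-S, a common wild-type stock for which the labels give no transgene or mutation, and were 3 to 5 days old. Both groups had lived for 4 days at 25 °C in cycles of 12 h light and 12 h darkness, and whole heads were the tissue. The pulsed group received saturating light for 30 min from ZT 15, where ZT is the time in hours since lights on. It was frozen 1 h after the pulse, at ZT 16.5, and the unpulsed group, the control, carries the same time in its labels. Head RNA was measured on 8 Affymetrix arrays, 4 for each group, as log2 values, on which a difference of 1 is a 2-fold change. The number of flies behind an array, their sex and whether replicates came from separate flies are not stated, so a p-value measures only the spread between these samples, which may be technical.

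Fly photoreceptors signal to the brain with histamine, which Hdc, the histidine decarboxylase, makes from histidine. Light releases it in the lamina, the first optic relay, where it opens chloride channels on second-order neurons. Surrounding glia take histamine up, and Ebony, the product of e, joins it to beta-alanine to give carcinine. Carcinine is carried back into photoreceptors by CarT, and Tan, the product of t, splits it into histamine and beta-alanine again. Mutants of this cycle are known for lost synaptic transients in recordings from the eye. The comparison of the groups asks whether transcripts of the cycle differ after light at night.

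The libraries differed in ways the groups do not name. Across probe sets, 7 arrays correlated with one another at 0.995 to 0.998, and pulsed replicate 2 correlated with none above 0.988. On that array the linear values of 4 male accessory gland genes summed to 1647, against 20.8 to 21.4 on the others. The yolk protein genes Yp1, Yp2 and Yp3, markers of fat body and of females, split the arrays another way. Yp1 was at 4.82 on unpulsed replicate 1 and at 5.15 and 5.21 on pulsed replicates 3 and 4, against 11.34 to 12.68 on the remaining arrays. Yp2 and Yp3 were low on the same 3 arrays, so the split is unequal between the groups, and its part in the results below was not tested. For the GAPDH control probe sets, the 3′ value minus the 5′ value, a sign of RNA integrity, was 0.857 ± 0.0616 log2 units in pulsed and 1.03 ± 0.0539 in unpulsed heads (SD, n = 4 each, exact two-sided permutation p = 0.0286, the smallest that 70 arrangements allow). Averaged over the actin, eIF-4a and GAPDH controls it was 1.68 ± 0.0724 in pulsed and 1.89 ± 0.12 in unpulsed heads (SD, n = 4 each, exact two-sided permutation p = 0.0571). Of 14 listed photoreceptor markers, 7 were measured with a single-symbol probe set (trp, trpl, Arr1, Arr2, chp, inaD and Galphaq), and each lay above the 40th percentile of mean value over all probe sets. The rhodopsin genes and the other listed photoreceptor markers were not analysed here. Of 10 glial markers 9 were measured, and these were above that percentile too.

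None of the 5 measured histamine genes passed limma's test between pulsed and unpulsed heads, with p-values adjusted by the Benjamini-Hochberg method over all probe sets. Differences, as pulsed minus unpulsed on the log2 scale, ran from -0.14 for Hdc to 0.13 for CarT. Of these genes, 4 had a lower mean in pulsed heads, where 58.6% of all probe sets tested did. Their median difference was -0.030, beside -0.0031 over all probe sets tested. At an adjusted p of 0.05, 0 of 5 were called and 0% of all probe sets. At an unadjusted p of 0.05, again 0 of 5 were called, beside 4.81% of all probe sets (902 of 18769). The groups overlapped for all 5 genes, while they did not for 2.56% of the probe sets tested. All 5 genes lay above the 40th percentile of mean value, and among the 11261 probe sets there 7.95% had an unadjusted p under 0.05, 4.1% had groups that did not overlap and 53.9% had a lower mean in pulsed heads. With 4 arrays a group the intervals below reflect only the spread between these arrays. They do not cover the unequal RNA integrity or yolk split of the groups, so larger changes could have been missed. Fewer cells of a type and less RNA per cell cannot be told apart in whole heads.

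**Figure D1:**
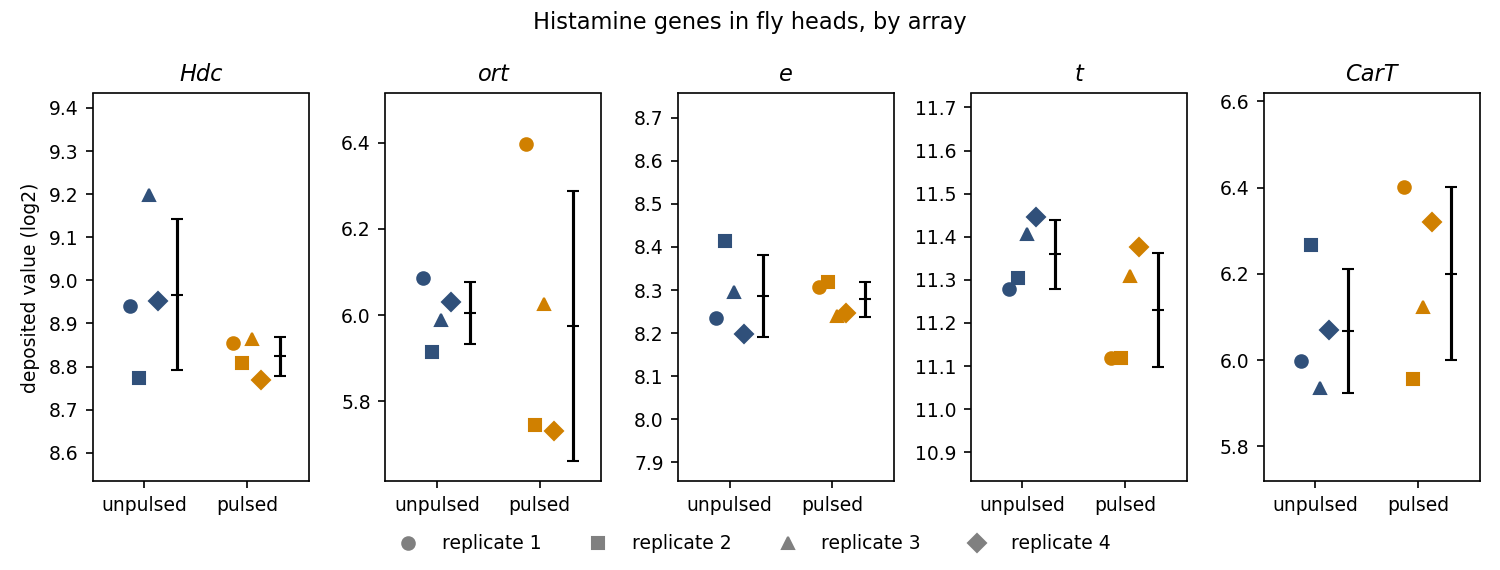
Deposited log2 value of each measured histamine gene on each array, with unpulsed heads in blue and pulsed heads in orange, marker shapes for replicate numbers, and the group mean with its SD (n = 4) in black. All 5 vertical axes span the same range of log2 units but are centred apart, and in every panel the groups overlap.

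Hdc, the enzyme gene of histamine synthesis (probe set 1634856_at), had the largest difference in size among the 5. Its log2 value was 8.94, 8.77, 9.20 and 8.95 on unpulsed replicates 1 to 4, and 8.85, 8.81, 8.86 and 8.77 on pulsed replicates 1 to 4. Pulsed values lay close together, and 1 unpulsed array, replicate 2, was as low as they were, so the groups overlapped. The means were 8.82 ± 0.0447 in pulsed and 8.97 ± 0.175 in unpulsed heads (SD, n = 4 each). The difference of -0.14 (SE 0.084) equals 0.906-fold, with a 95% interval of 0.789 to 1.04, and it did not pass limma's test (unadjusted p = 0.135, adjusted p = 0.9999). All 4 pulsed values were under the unpulsed mean. Without unpulsed replicate 3, the highest array for Hdc, the difference was -0.065. Without unpulsed replicate 2 it was -0.21 (SE 0.070, limma unadjusted p = 0.0251, adjusted p = 0.998), so it moved both ways with single arrays.

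Unpulsed replicate 3, the highest array for Hdc, was also the highest for 6 of the 7 photoreceptor markers. Summed on the linear scale, these markers ran from 64738 to 77829 in unpulsed heads, with the top value on replicate 3, and from 61907 to 69240 in pulsed heads. Of the 7 markers, 5 had a lower mean in pulsed heads and 0 passed the test. Hdc minus the mean log2 value of these markers on the same array was -3.63 ± 0.0937 in pulsed and -3.54 ± 0.0548 in unpulsed heads (SD, n = 4 each). The pulsed minus unpulsed difference on that scale was -0.092, given as a description. For t it was -0.078 and for CarT 0.18, so Hdc did not have the largest difference there. The part of the marker levels in the Hdc values was not tested.

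Hdc has 4 RefSeq transcripts in the Release 6 annotation, and its probe set gives 1 value for whichever of them it reads. Its gene overlaps 2 neighbours there, CG12209 and the noncoding gene lncRNA:CR45265. CG12209, whose mean value of 2.36 lay below the 40th percentile, had a difference of -0.00096 (SE 0.012). The noncoding gene had no single-symbol probe set.

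ort encodes a histamine-gated chloride channel that second-order neurons of the lamina need to respond to photoreceptors (probe set 1625463_at). It was at 6.09, 5.91, 5.99 and 6.03 log2 units on unpulsed replicates 1 to 4. On pulsed replicates 1 to 4 it was at 6.40, 5.74, 6.03 and 5.73. The pulsed arrays lay on both sides of the unpulsed ones, with replicate 1 above all of them and replicates 2 and 4 below all of them. The SD was 0.312 in pulsed and 0.0725 in unpulsed heads, and this contrast of spreads was not tested. The means were 5.97 and 6.01 (n = 4 each), and the difference of -0.030 (SE 0.15, 0.979-fold, 95% interval 0.767 to 1.25) did not pass (adjusted p = 0.9999). Its sign hung on single arrays: the difference was -0.17 without pulsed replicate 1, 0.046 without pulsed replicate 2 and 0.051 without pulsed replicate 4. The interval was the widest of the 5.

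Neuron markers, which cover far more cells than the targets of photoreceptors, had 6 of 8 members measured and 0 called. Their summed linear value was 2090 to 2596 in pulsed and 2234 to 2947 in unpulsed heads. Pulsed replicate 1, the array with the most ort, stood at 2395 and so inside both ranges.

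The shuttle starts in glia with e, which encodes the beta-alanyl amine synthase Ebony (probe set 1639823_at). Its values were 8.24, 8.41, 8.30 and 8.20 on unpulsed replicates 1 to 4, and 8.31, 8.32, 8.24 and 8.25 on pulsed replicates 1 to 4. All 4 pulsed arrays lay inside the unpulsed range. The means were 8.28 ± 0.0411 in pulsed and 8.29 ± 0.0945 in unpulsed heads (SD, n = 4 each). The difference was -0.0075 (SE 0.049), and its 95% interval of 0.918- to 1.08-fold was the narrowest of the 5 (adjusted p = 0.9999). Among the 11261 probe sets above the 40th percentile, the within-group SD of e stood at the 19.5th percentile, and that of ort at the 81.4th.

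Of the 9 measured glial markers, 5 had a lower mean in pulsed heads and 0 passed at an adjusted p of 0.05. Gli, of glial junctions, was at -0.26 (SE 0.047, adjusted p = 0.539) and nrv2, a sodium pump subunit gene, at -0.37 (SE 0.12, adjusted p = 0.920), and for these 2 of 9 the groups did not overlap, beside 2.56% of all probe sets. repo, the transcription factor gene that defines glia, was at -0.044 (SE 0.053). The summed glial level was 18051 to 20671 in pulsed and 18103 to 20538 in unpulsed heads. Gs2, the brightest marker, adds most to this sum. The mean log2 value of the 9 glial markers was 9.717 to 9.820 in pulsed and 9.823 to 9.868 in unpulsed heads. On this scale the groups did not overlap, and the difference of -0.076 was not tested. Gli and nrv2 weigh most in that difference. The other markers ran from -0.044 for repo to 0.023 for wrapper, and the median of the 9 was -0.027. e minus that mean on the same array was -1.49 ± 0.0635 in pulsed and -1.56 ± 0.0845 in unpulsed heads (SD, n = 4 each). The difference of this quantity was 0.068, where e itself was at -0.0075, so most of it comes from the marker mean.

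CarT is the photoreceptor transporter that brings carcinine back (probe set 1634836_a_at). It was at 5.998, 6.27, 5.93 and 6.07 on unpulsed replicates 1 to 4, and at 6.40, 5.96, 6.12 and 6.32 on pulsed replicates 1 to 4. Pulsed replicates 1 and 4 lay above all unpulsed arrays and pulsed replicate 2 lay between the lowest unpulsed array and the next. The means were 6.20 ± 0.201 in pulsed and 6.07 ± 0.144 in unpulsed heads (SD, n = 4 each). CarT was the 1 gene of the 5 with a higher mean in pulsed heads, by 0.13 (SE 0.11, 1.10-fold, 95% interval 0.908 to 1.32), and it did not pass (unadjusted p = 0.286, adjusted p = 0.9999). The difference was 0.065 without pulsed replicate 1 and 0.21 without pulsed replicate 2.

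t encodes Tan, the hydrolase that frees histamine from carcinine in photoreceptors (probe set 1638505_at). It was at 11.28, 11.30, 11.41 and 11.45 on unpulsed replicates 1 to 4, and at 11.12, 11.12, 11.31 and 11.38 on pulsed replicates 1 to 4. Pulsed replicates 1 and 2 lay below all unpulsed arrays, and the other two lay among them. The means were 11.23 ± 0.132 in pulsed and 11.36 ± 0.0802 in unpulsed heads (SD, n = 4 each). The difference of -0.13 (SE 0.072) equals 0.915-fold, with a 95% interval of 0.812 to 1.03 (unadjusted p = 0.118, adjusted p = 0.9999). Of all probe sets tested, 10.4% had a smaller p than t, and 11.6% a smaller p than Hdc. Both genes lay above the 40th percentile, where small p-values were more common. There 7.95% of probe sets had an unadjusted limma p under 0.05, beside 4.81% of all. With RNA integrity as a covariate (the average over the 3 controls), t was at -0.049 (SE 0.11) and Hdc at -0.11 (SE 0.14), neither called. Without it the SEs were 0.072 and 0.084. That average was itself lower in pulsed heads, so the fit can hardly tell it apart from the pulse.

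**Figure D2:**
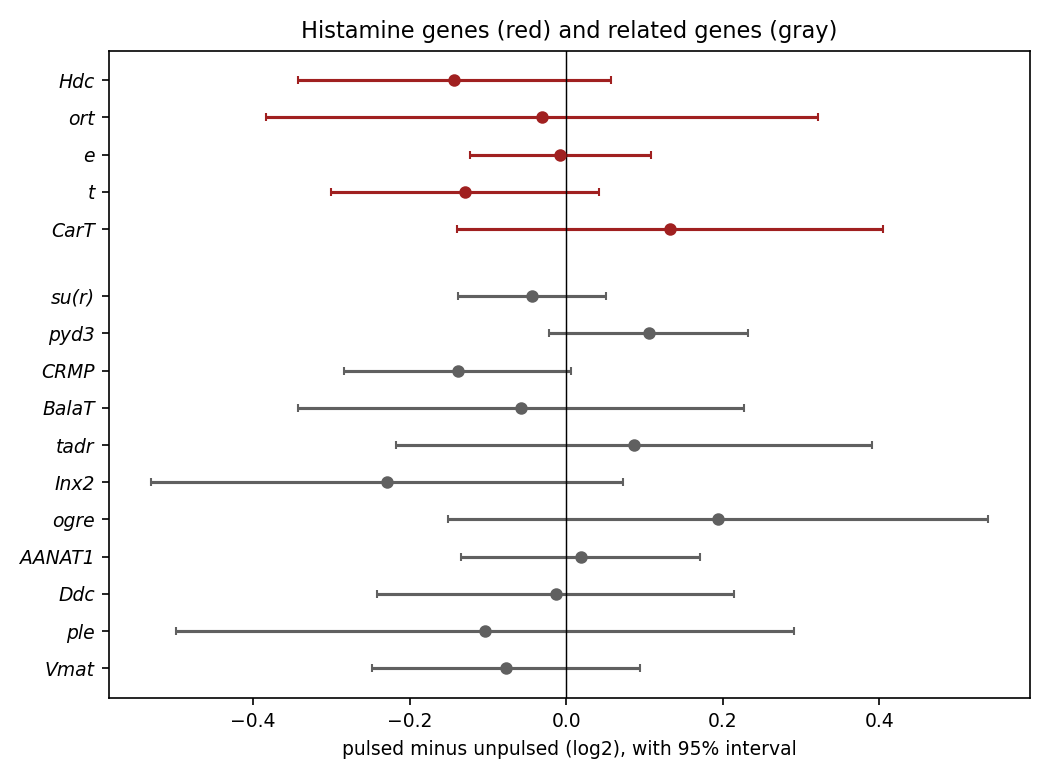
Pulsed minus unpulsed log2 difference with its 95% interval from limma (n = 4 arrays per group) for the 5 measured histamine genes in red and 11 related genes in gray. Every interval includes 0, that of e is the narrowest in red, and that of ort the widest in red.

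Ebony and Tan run opposite reactions, so the log2 value of e minus that of t was compared within each array. Only the change of this quantity between groups can be read, since the probe sets differ in brightness for the same RNA. It was -3.04, -2.89, -3.11 and -3.25 on unpulsed replicates 1 to 4, and -2.81, -2.80, -3.07 and -3.13 on pulsed replicates 1 to 4. Pulsed replicates 1 and 2 were above every unpulsed array, and the groups overlapped. The means differed by 0.12 (-2.95 ± 0.172 in pulsed, -3.07 ± 0.149 in unpulsed heads, SD, n = 4 each), which did not pass an exact two-sided permutation test (p = 0.314 over 70 arrangements).

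Related genes of amine and beta-alanine metabolism gave 11 of 14 measured, and 0 of these passed limma's test at an adjusted p of 0.05 or an unadjusted p of 0.05, each gene by its brightest probe set. Over all 19 probe sets of these genes 0 passed at an adjusted p of 0.05 and 1, for CRMP, at an unadjusted p of 0.05. Of the 11, 4 had a higher and 7 a lower mean in pulsed heads, with a median of -0.043 and a range of -0.23 to 0.19. The genes b, which makes beta-alanine from aspartate, w, an eye transporter gene, and lovit were not analysed here.

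Beta-alanine also comes from the breakdown of uracil, by the enzymes of su(r), CRMP and pyd3 in turn. su(r), for the first step, was at -0.043 (SE 0.040). CRMP, for the middle step, had the smallest unadjusted p among the related genes by brightest probe set, at -0.14 (SE 0.061, unadjusted p = 0.0579, adjusted p = 0.9999). It was at 9.72, 9.75, 9.83 and 9.66 on unpulsed replicates 1 to 4 and at 9.66, 9.44, 9.66 and 9.65 on pulsed replicates 1 to 4, so that 3 pulsed arrays lay below all unpulsed ones. Of its other 4 probe sets, one with a low mean of 3.25 log2 units was at -0.047 (SE 0.015, unadjusted p = 0.0148, limma adjusted p = 0.897). The rest were at 0.011, 0.16 and 0.26, with unadjusted p of 0.893, 0.199 and 0.190. pyd3, for the last step, was at 0.11 (SE 0.054, unadjusted p = 0.0911, adjusted p = 0.9999), with 2 pulsed arrays above all unpulsed ones. The transporter gene Balat, which serves beta-alanine uptake, was at -0.058 (SE 0.12), and tadr, a histidine transporter gene of photoreceptors, at 0.086 (SE 0.13) on its brightest probe set and at -0.060 (SE 0.051) on the other.

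Inx2 and ogre encode innexins, the subunits of insect gap junctions, which couple glia among other cells. Inx2 was at -0.23 (SE 0.13, unadjusted p = 0.116, adjusted p = 0.9999), with pulsed replicates 1 and 2 at 9.93 and 9.80 and every other array between 10.20 and 10.37. ogre was at 0.19 (SE 0.15, unadjusted p = 0.226, adjusted p = 0.9999), and there unpulsed replicate 3 stood low at 9.35, with the other arrays at 9.84 to 10.08. Other amine genes were the acetyltransferase gene listed now as speck (0.019, SE 0.064), the dopa decarboxylase gene Ddc (-0.013, SE 0.096) and the vesicular transporter gene Vmat (-0.077, SE 0.072, with its other 3 probe sets between -0.25 and -0.0035). The tyrosine hydroxylase gene ple was at -0.10 (SE 0.17), on a probe set with a low mean of 3.53 log2 units.

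The genes whose values over the arrays were most like those of each member were found by Pearson's r over 8 arrays, among 9284 named probe sets above the 40th percentile. These r are descriptions that share the arrays and their RNA quality, and each name is the top of many candidates. Hdc was followed by nemy, a cytochrome b561 family gene (r = 0.977), and by CG2121 (r = 0.967). Both were highest on unpulsed replicate 3, as Hdc was, at 8.02 and 8.49 log2 units. Without the 2 arrays farthest from the median of Hdc, unpulsed replicates 3 and 4, r was 0.887 and 0.898 over 6 arrays. For Hdc, 68 candidates had r above 0.9, against 6 to 12 for each other member.

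**Figure D3:**
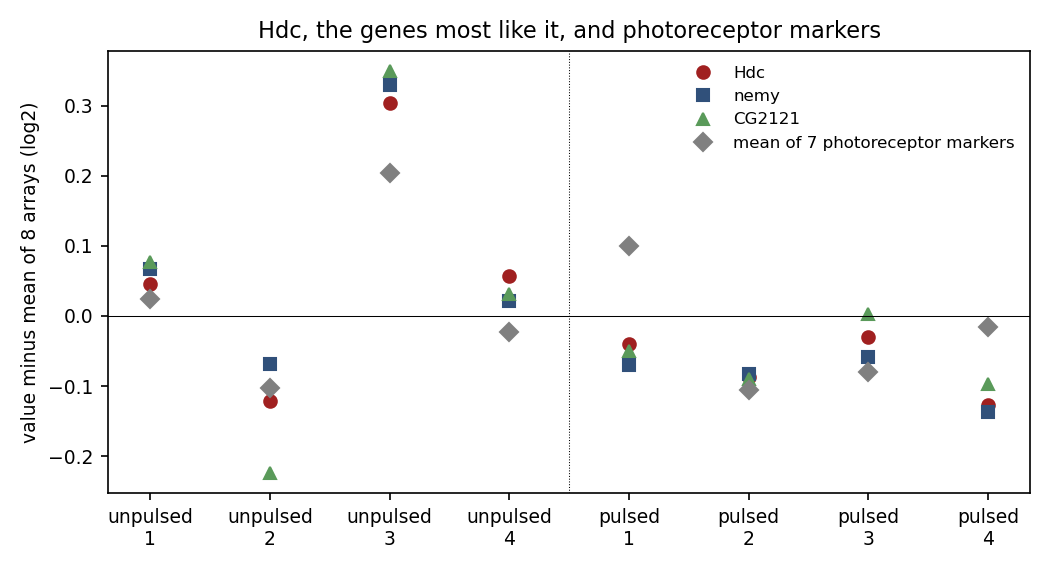
Log2 value minus the mean of 8 arrays, by array, for Hdc, for nemy and CG2121, the genes most like it, and for the mean of 7 photoreceptor markers. All 4 are highest on unpulsed replicate 3, and on pulsed replicate 1 the markers lie above Hdc, nemy and CG2121.

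ort was most like CG14646 (r = 0.970) and Reg-5, first named as a rhythmically expressed gene (r = 0.963). Both were highest on pulsed replicate 1, at 7.54 and 9.14, and r was 0.883 and 0.867 without pulsed replicates 1 and 4. e was most like enok, a histone acetyltransferase gene (r = 0.965), and Ptr, a patched-related gene (r = 0.952). t was most like Snp (r = 0.970) and Glos (r = 0.944), whose differences were -0.20 and -0.28 and did not pass (adjusted p = 0.990 and 0.9999). CarT was most like l(2)05714 (r = 0.931) and CG44422 (r = 0.917). No member was among the genes most like another member, and between members r ran from -0.603, for Hdc and CarT, to 0.435, for Hdc and t. On unpulsed replicate 3 Hdc had its highest and CarT its lowest value.

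**Figure D4:**
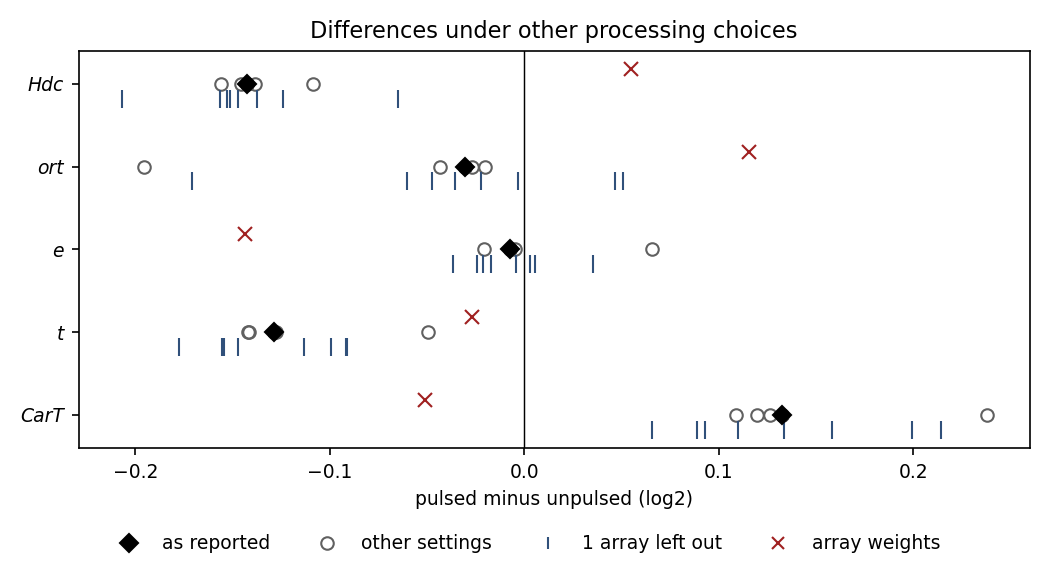
Pulsed minus unpulsed log2 difference of each measured histamine gene as reported (black diamonds), under other settings (gray circles), with 1 array left out (blue ticks) and with array weights (red crosses). The values of t stay below 0 throughout, while those of Hdc and CarT cross 0 with array weights and those of ort and e cross it under several settings.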

How the data were processed

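The authors deposited a single table that gives each probe set a log2 value on each array; the scale was read from the values, which run from 1.36 to 15.5. Per the labels' protocols, RNA was extracted with Trizol and labelled with biotin by an Affymetrix kit. Background correction, summary of probes and normalization are not given in the sources used here. The deposited values were used unchanged, with 183 control probe sets left out. Symbols came from the platform annotation and were updated by gene number through RefSeq's Release 6 table (13544 of 13647 single-symbol probe sets). The probe set with the highest mean stood for a gene.

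The test was limma's (version 3.58.1, R 4.3.3; lmFit, then eBayes), two-sided on all 8 arrays, adjusted by Benjamini-Hochberg over 18769 probe sets with a threshold of 0.05 and no filter on low values. Intervals are at 95% from the same fit. Single values had exact permutation tests. The steps were tested on simulated data with independent normal noise and 200 changed probe sets, drawn from those above the 40th percentile. Changes of 0.25, 0.5, 1 and 2 log2 units had equal shares. Of changes of 0.25 log2 units 20.7% were recovered, of 0.5 log2 units 45.9%, of 1 log2 unit 81.9% and of 2 log2 units 96.9%. The adjusted threshold loosens with many large changes, and 0 probe sets were called in the deposited data, so these shares need not hold there. Of the calls 6.28% were false, and the 95% intervals held the set change in 93.8% of cases. Members and lists were chosen with earlier results of these data known. All members were named, the 4 related genes with the smallest unadjusted p were described with p, and the 2 most alike genes were named per member. Alternatives changed the scaling (quantile, or arrays centred on their median), low values (a pseudocount of 16, or a filter at the 40th percentile of mean value), the spread (trended and robust, or weighted arrays), the model (replicate number as a block, or RNA integrity as a covariate), the threshold, or left out 1 array. The planned ort minus HisCl1 comparison was not run, since HisCl1 was not analysed here. The number of arrays limits the precision.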

Additional observations from a re-analysis of the deposited data

How the results depend on the processing

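Array weights gave 2936 calls among all probe sets in place of 0, with unpulsed replicate 2 weighted at 10.1, pulsed replicate 3 at 6.81 and every other array at 1.64 or less. Among them was 1 member, e, at -0.14 (limma adjusted p = 0.0318, the lowest among its alternatives, which reached 1.00). For e, unpulsed replicate 2 was the highest of all arrays (8.41) and pulsed replicate 3 the lowest pulsed one (8.24). These are the arrays that this setting weighted most, so the call leans on them. The same setting turned Hdc to 0.055, ort to 0.12 and CarT to -0.051, none of them called, and t stayed at -0.027. The count of all calls was 1 with the filter on dim probe sets, 1 with median-centred arrays, 1 with the trended and robust spread, 2 at an adjusted p of 0.1 and 902 at an unadjusted p of 0.05. It was 0 under every other alternative, each array left out included, and 0 members were called in any of these but array weights. With the 3′ minus 5′ covariate e was at 0.066 (SE 0.072), ort at -0.20 (SE 0.23) and CarT at 0.24 (SE 0.18). With 1 array left out, Hdc ran from -0.21 to -0.065, ort from -0.17 to 0.051, e from -0.037 to 0.035, t from -0.18 to -0.091 and CarT from 0.065 to 0.21. The sign turned for ort without pulsed replicate 2 (0.046) or 4 (0.051) and for e without pulsed replicate 3 (0.0056), pulsed replicate 4 (0.0029) or unpulsed replicate 2 (0.035). e minus t ran from 0.063 to 0.18 with 1 array left out, and was not called with any array left out, with quantile normalization or with the pseudocount. The causes were not tested. With the replicate number as a block 0 probe sets and 0 members were called, and the differences are the same by construction. The SE of t went from 0.072 to 0.026 (unadjusted p = 0.00792, limma adjusted p = 0.689), and the other members had adjusted p of 0.970 or more. Deviations of same-numbered arrays correlated at -0.10 to 0.059 across probe sets, and pulsed replicate 1 alone correlated best with its own number, so the numbers were not taken as pairs.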
